A study of Mus musculus with 6 samples.

Results

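The genes described here are those of glycolysis, glycogen storage and phosphocreatine metabolism, 43 listed symbols chosen by function, of which 39 were measured under their own symbol among 23279 named genes on 6 arrays. Eno1, Gapdh, Gpi1 and Pfkfb1 had no probe set under that symbol in the platform annotation and were not analysed here. The 43 genes were grouped by metabolic role, with muscle isoforms set beside their counterparts from other tissues.

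The arrays profiled primary myoblasts, the precursor cells of skeletal muscle, from limb muscle of mice labelled strain C57bl6N. All cultures carried the Pax7-CreERT2 transgene, a recombinase that 4-hydroxytamoxifen switches on in cells that express the muscle stem cell gene Pax7, and 1 beta-catenin allele with loxP sites around exon 3. The 3 activated cultures received 4-OH tamoxifen in ethanol while differentiating, which removes exon 3 and yields a beta-catenin that escapes degradation, and the 3 control cultures received ethanol alone. All had grown for 5 passages with 20% FBS and bFGF at 2 ng/ml before 24 hours in 2% HS. No culture without the loxP allele was given 4-OH tamoxifen among the samples used here, so effects of the drug and of recombination cannot be told apart. The labels name 3 independent cultures per condition and no animals, and p-values therefore speak only to the variation among such cultures. Levels below are log2 values, and differences are activated minus control on that scale, ± the standard error of limma's fit to 3 arrays per group.

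Glycolysis splits glucose into pyruvate in the cytosol and yields ATP without oxygen. Muscle fibres also store glucose as glycogen, which phosphorylase releases on demand, and buffer ATP with phosphocreatine through creatine kinase. When myoblasts become fibres they come to use muscle isoforms of several of these enzymes (Pfkm, Pgam2, Eno3, Pygm, Ckm, Ckmt2) beside or in place of the isoforms found in most tissues.

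28 of the 39 members (71.8%) had a higher mean in activated cultures, and the members' median log2 difference was 0.60, against 40.3% of all genes and a median of -0.08. No member passed an adjusted p of 0.05 (limma, smallest adjusted p = 0.324), where 0% of all 23279 genes did. At an unadjusted p under 0.05, 9 members (23.1%) were higher and 0 lower, against 4.44% and 3.42% of all genes. The 9 were Pfkm, Tpi1, Pgam1, Pdk1, Pdk4, Pygm, Gys1, Gbe1 and Pgm1. The count was 3 without activated replicate 2, where 2.24% of all genes were higher at that level, and 5 without control replicate 1, where 3.13% were. In 7 members (17.9%) each activated array lay above each control array, against 5.4% of all genes, and in 0 below, against 7.4%. Bright genes in general were more often higher in activated cultures. Among the 11641 genes at or above the median level, 58.7% had a higher mean in activated cultures, 8.19% were higher and 4.42% lower at an unadjusted p under 0.05, and 9.37% had every activated array above every control array. Of the 32 members among these genes, the corresponding counts were 27, 8, 0 and 6, and their median difference was 0.70 against 0.12 over all 11641. After quantile normalization, which gives all arrays the same distribution, 27 of the 39 members had a higher mean in activated cultures, against 48.2% of all genes. At an unadjusted p under 0.05, 6 were then higher and 0 lower, against 4% and 3.61% of all genes. Median centring moved the median of all genes to 0.04 and gave 1320 genes higher and 537 lower at that level, where the deposited values gave 1034 and 796 (together 7.86% of all genes).

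The replicate numbers of the titles pair the arrays in the sense that same-numbered arrays deviated together. With the number as a block, 17 members (43.6%) were higher at an unadjusted p under 0.05 and 1 lower, against 9.63% and 7.01% of all genes. None of the 39 passed after adjustment with the block, where 0.133% of all genes did (limma, smallest adjusted p = 0.0507 for Pygm and Pfkm). Pfkm and Pygm passed with the block once the arrays numbered 3 were left out (limma, smallest adjusted p = 0.00936), a setting in which 2.11% of all genes passed.

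**Figure D1:**
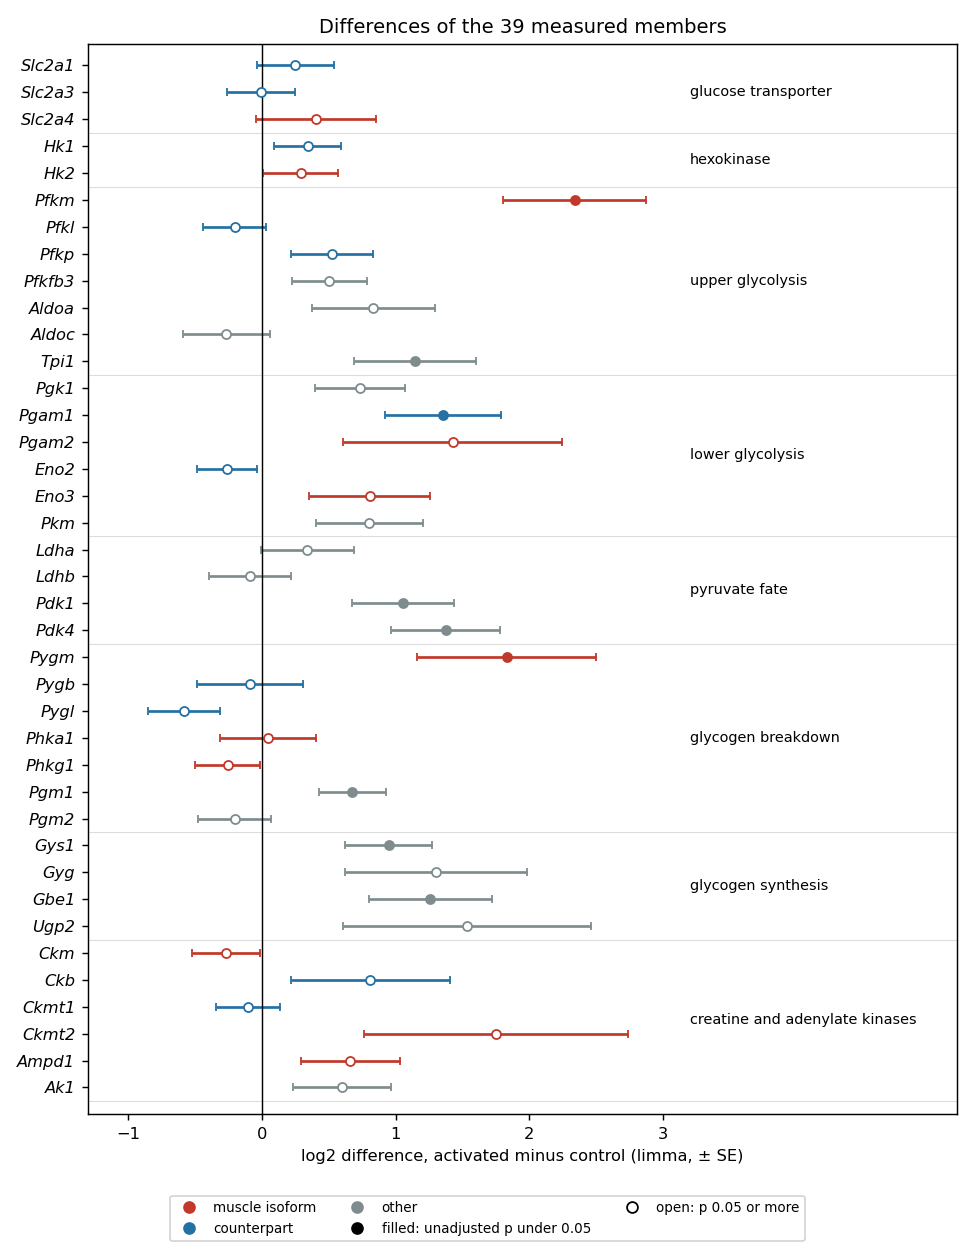
Log2 difference, activated minus control, of the 39 measured members with limma's standard error, in order of metabolic role. Red marks muscle isoforms, blue their counterparts and grey other members; filled points had an unadjusted p under 0.05. Pfkm lies farthest to the right at 2.34 and Pygl farthest to the left at -0.58.

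A few measurements of the whole series touch these results. Array medians ran from 4.08 to 4.27 in activated and from 4.19 to 4.37 in control cultures, and the SD of values within an array from 1.89 to 2.13 in activated and from 1.72 to 2.02 in control cultures. Ctnnb1 itself, read here as 1 value per array that does not resolve exon 3 and so does not check the deletion, was at 7.91, 8.79 and 8.91 in activated and 8.54, 8.71 and 8.30 in control cultures. Axin2, a feedback target of beta-catenin, was at 5.50, 5.85 and 6.54 in activated and 4.55, 3.81 and 4.58 in control cultures, without overlap. All 7 measured genes of myogenic identity averaged 7.45, 8.12 and 8.0 in activated and 7.41, 7.67 and 6.95 in control cultures. Single genes moved in opposite directions, 5 with a higher and 2 with a lower mean in activated cultures. At an unadjusted p under 0.05, 3 were higher and 1 lower, against 4.44% and 3.42% of all genes. Markers of fibroblasts, leukocytes, endothelium and adipocytes averaged between 2.96 and 4.38 on every array, but single markers stood higher. Col3a1 of fibroblasts was at 5.28, 6.10 and 7.02 in activated and 6.36, 7.57 and 7.34 in control cultures. Cd68 of leukocytes was at 5.08, 5.31 and 6.66 in activated and 5.01, 4.91 and 7.33 in control cultures, highest in replicate 3 of each group. Most markers of these cell types had a lower mean in activated cultures. These were 6 of 7 fibroblast, 7 of 8 leukocyte, 6 of 7 endothelial and 4 of 5 adipocyte markers, with median differences of -0.15, -0.44, -0.32 and -0.15. Of all 23279 genes, 13896 had a lower mean, with a median difference of -0.08. Genes at or above the median level more often had a higher mean (58.7%), and most of these markers lay under that level. At an unadjusted p under 0.05, Fbln1 of fibroblasts (-1.11 ± 0.31) and Fcer1g of leukocytes (-0.67 ± 0.25) were lower, and the part of these cell types in the metabolic differences was not tested. The 6 measured markers of neurons and glia averaged 4.95, 4.36 and 4.82 in activated and 4.13, 4.55 and 4.56 in control cultures. Of these 6, 2 had a higher and 4 a lower mean in activated cultures, with a median difference of -0.18, and the tubulin gene Tubb3 alone differed by 3.16 ± 0.74 (limma, adjusted p = 0.325). Tubb3, Col3a1, Cd68, Fbln1, Fcer1g and, further on, Ttn are named after their values were seen.

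Genes of the differentiated fibre (15 of 15 higher, 11 at an unadjusted p under 0.05 and 0 lower) averaged 9.83, 10.46 and 9.15 in activated replicates 1, 2 and 3 and 8.55, 8.53 and 7.43 in the control replicates. Cell cycle genes (11 of 11 lower, 8 at an unadjusted p under 0.05) averaged 5.55, 5.40 and 6.55 in activated and 7.13, 7.84 and 6.98 in control cultures. Of all genes 40.3% had a higher mean in activated cultures, and 4.44% were higher and 3.42% lower at an unadjusted p under 0.05. For genes at or above the median level these shares were 58.7%, 8.19% and 4.42%. Both lists differed between the groups beside the metabolic genes described below, and their part in those differences was not tested. In a whole culture, a larger share of differentiated cells and more RNA per cell cannot be told apart.

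The upstream sequences of 4 members are shown because they hold a muscle isoform with a higher mean in activated cultures, Pygm, and one without, Ckm, the muscle mutase Pgam2, which holds 2 of the motifs, and the glycogen synthase Gys1. Each is the 250 bases before the RefSeq start (assembly GRCm38.p6), 5′ to 3′ on the gene's strand, and 36 of the 39 members matched the RefSeq promoter table by symbol. Capitals mark CAGCTG, an E-box form bound by MyoD and myogenin, the MEF2 consensus, and CTTTGA or its reverse complement TCAAAG, part of the site bound by TCF/LEF partners of beta-catenin. Pygm lies on the plus strand at chr19:6384158-6384407, Pgam2 on the minus strand at chr11:5803797-5804046, Ckm on the plus strand at chr7:19410844-19411093 and Gys1 on the plus strand at chr7:45434589-45434838.
Pygm: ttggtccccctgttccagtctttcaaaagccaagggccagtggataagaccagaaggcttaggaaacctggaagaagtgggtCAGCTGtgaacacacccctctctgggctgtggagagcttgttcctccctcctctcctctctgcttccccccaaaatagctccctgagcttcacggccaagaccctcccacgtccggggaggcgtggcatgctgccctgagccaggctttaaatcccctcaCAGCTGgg
Pgam2: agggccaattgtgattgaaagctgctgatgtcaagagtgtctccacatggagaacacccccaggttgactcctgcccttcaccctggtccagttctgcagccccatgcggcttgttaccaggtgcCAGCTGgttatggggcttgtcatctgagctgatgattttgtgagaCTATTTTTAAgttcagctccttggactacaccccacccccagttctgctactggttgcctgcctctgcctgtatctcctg
Ckm: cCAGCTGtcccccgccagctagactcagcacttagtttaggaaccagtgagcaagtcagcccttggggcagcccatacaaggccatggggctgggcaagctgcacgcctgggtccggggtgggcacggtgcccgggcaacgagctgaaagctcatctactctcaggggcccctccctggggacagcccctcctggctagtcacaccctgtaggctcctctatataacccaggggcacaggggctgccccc
Gys1: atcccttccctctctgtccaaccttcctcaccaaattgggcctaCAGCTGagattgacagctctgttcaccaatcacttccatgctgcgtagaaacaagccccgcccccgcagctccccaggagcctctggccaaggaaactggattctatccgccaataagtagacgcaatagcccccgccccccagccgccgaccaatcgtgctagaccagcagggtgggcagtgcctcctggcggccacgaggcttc
Pygm holds CAGCTG beginning at bases -168 and -8 from its start, Pgam2 at -125 with a MEF2 match at -80, Ckm at -249 and Gys1 at -206. CAGCTG, searched on both strands since it is its own reverse complement, occurred upstream of 5 of the 9 muscle isoforms in the table (Pygm, Pgam2, Ckm, Ckmt2 and Phka1), 10 of 36 members (27.8%) and 14.7% of all 27025 genes there. CTTTGA on either strand occurred in 6 members (16.7%) and 15.8% of all genes, and in 0 of the 9 members with an unadjusted p under 0.05. ACGTG on either strand, the core bound by hypoxia-inducible factor, which overlaps CACGTG, occurred in 16 members (44.4%) and 18.5% of all genes. The MEF2 consensus occurred in 2 members (5.56%), Pgam2 and Ckb, and 3.42% of all genes. Of the 9 members with an unadjusted p under 0.05, 3 held CAGCTG, 4 ACGTG and 0 the MEF2 consensus. Of the 9 muscle isoforms, 2 held CTTTGA, 3 ACGTG and 1 the MEF2 consensus. All 4 sequences shown hold CAGCTG, so they do not represent the members. Pfkm, with the largest difference, has no CAGCTG in its upstream sequences and is not shown. These letter matches describe the sequences only, and genes with several starts had more sequence searched.

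Glucose enters through transporters and is trapped by hexokinase. None of the 5 members at this step had an unadjusted p under 0.05, and their differences ran from -0.0071 to 0.40. Slc2a4, the insulin-responsive transporter of muscle and fat, was at 4.84, 5.49 and 3.70 in activated replicates 1, 2 and 3 and 4.60, 4.17 and 4.06 in the control replicates. Activated replicate 2 stood highest, activated replicate 3 lowest, and without activated replicate 2 the difference was -0.0045. Slc2a1, the transporter of most tissues, was at 7.83, 8.14 and 8.49 in activated and 7.48, 8.16 and 8.07 in control cultures, and its difference of 0.25 turned to -0.05 after quantile normalization and -0.11 after cyclic loess. Slc2a3, known as the neuronal transporter, was at 4.01, 3.87 and 4.20 in activated and 4.39, 3.66 and 4.06 in control cultures. Hexokinase Hk2, the form regulated in muscle, was at 5.58, 5.96 and 6.07 in activated and 5.31, 5.39 and 6.04 in control cultures, a difference of 0.29 ± 0.28 (limma, adjusted p = 0.784). Hk1, the broadly expressed form, was at 5.81, 6.37 and 6.25 in activated and 5.65, 6.07 and 5.68 in control cultures, with a difference of 0.34 ± 0.25. The arrays of both hexokinases overlapped between the groups.

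Phosphofructokinase, the committed step of glycolysis, held the largest difference among the members. Pfkm, its muscle isoform, was at 6.76, 7.90 and 5.85 in activated replicates 1, 2 and 3 and 4.37, 5.12 and 3.99 in the control replicates. The lowest activated array lay above the highest control array, and within each numbered pair the activated array was higher, by 2.38, 2.78 and 1.85. Pfkm was 5.06-fold higher in activated cultures, a log2 difference of 2.34 ± 0.54 (limma, adjusted p = 0.324, and 0.0507 with the replicate block). Pfkl, the liver isoform, was at 4.68, 5.26 and 5.08 in activated and 5.26, 5.04 and 5.33 in control cultures, a difference of -0.20 ± 0.24. Pfkp, the platelet isoform, was at 4.82, 5.48 and 4.96 in activated and 4.43, 4.20 and 5.06 in control cultures, a difference of 0.52 ± 0.31. Both of these isoforms overlapped between the groups. Pfkfb3, which makes a potent activator of phosphofructokinase, was at 4.75, 5.16 and 4.41 in activated and 4.35, 4.50 and 3.95 in control cultures, a difference of 0.51 ± 0.28.

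Further down, Tpi1, the triosephosphate isomerase, was at 7.54, 9.33 and 7.88 in activated replicates 1, 2 and 3 and 7.15, 6.87 and 7.29 in the control replicates. The groups did not overlap, but activated replicate 2 stood far above the other 5 arrays. Tpi1 was 2.21-fold higher in activated cultures (log2 difference 1.14 ± 0.46; limma, adjusted p = 0.609), and the difference was 0.60 without activated replicate 2. Aldolase Aldoa, the form of muscle and many other tissues, was at 4.21, 5.56 and 4.33 in activated and 3.68, 3.35 and 4.58 in control cultures, with activated replicate 2 again highest. Its difference of 0.83 ± 0.46 was 0.40 without that array. Aldoc, the brain aldolase, was at 3.90, 3.66 and 3.68 in activated and 3.55, 3.79 and 4.69 in control cultures, where control replicate 3 stood highest. Its difference of -0.27 was 0.08 without control replicate 3. The mean level of Aldoa lay at percentile 50.1 of all genes, which is low for an enzyme known to be abundant, and how well its probe set responds was not tested.

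Lower glycolysis earns the ATP. Pgk1, phosphoglycerate kinase, was at 6.11, 7.09 and 6.70 in activated and 5.45, 6.29 and 5.96 in control cultures, a difference of 0.73 ± 0.34 in groups that overlapped, with numbered pairs differing by 0.66, 0.80 and 0.74. Pkm, pyruvate kinase, was at 10.28, 11.34 and 11.46 in activated and 9.65, 10.62 and 10.42 in control cultures. Its difference of 0.80 ± 0.40 was 0.45 after quantile normalization and 0.22 after cyclic loess, and its level lay at percentile 99.8. The groups overlapped for Pkm, among the brightest genes on the arrays.

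The phosphoglycerate mutases and enolases come as muscle and other isoforms. Pgam2, the muscle mutase, was at 7.53, 10.00 and 7.09 in activated replicates 1, 2 and 3 and 7.18, 7.55 and 5.6 in the control replicates. Activated replicate 2 stood far above every other array, and control replicate 3 lowest. The difference of 1.43 ± 0.82 (limma, adjusted p = 0.709) was 0.53 without activated replicate 2 and 0.84 without control replicate 3. Pgam1, the mutase of most tissues, was at 4.65, 3.28 and 3.19 in activated and 2.74, 2.37 and 1.94 in control cultures, without overlap. It was 2.56-fold higher in activated cultures (log2 difference 1.35 ± 0.43; limma, adjusted p = 0.485; 0.88 without activated replicate 1). Its level lay at percentile 24.4, among dim probe sets, and the table gives no detection call. Eno3, the muscle enolase, was at 9.91, 11.48 and 10.50 in activated and 9.19, 10.10 and 10.19 in control cultures, a difference of 0.81 ± 0.45 that was 0.41 after quantile normalization, 0.26 after cyclic loess and 0.38 without activated replicate 2. Eno2, the neuronal enolase, was at 2.60, 3.01 and 3.09 in activated and 3.18, 3.07 and 3.23 in control cultures, a difference of -0.26 ± 0.23 at percentile 24.5 of level.

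Pyruvate is either reduced to lactate or oxidized through pyruvate dehydrogenase, which Pdk kinases switch off. Pdk4, the kinase induced in muscle by fasting, was at 9.48, 9.48 and 9.16 in activated replicates 1, 2 and 3 and 8.67, 8.26 and 7.08 in the control replicates. The activated arrays lay close together above all control arrays, of which control replicate 3 was lowest. Pdk4 was 2.59-fold higher in activated cultures (log2 difference 1.37 ± 0.41; limma, adjusted p = 0.442), and 0.91 on the log2 scale without control replicate 3. Pdk1, a kinase known as a target of hypoxia-inducible factor, was at 6.56, 6.26 and 5.23 in activated and 4.83, 5.36 and 4.70 in control cultures. Activated replicate 3 lay under control replicate 2, and the difference was 1.05 ± 0.38 (limma, adjusted p = 0.561). Neither lactate dehydrogenase subunit separated the groups. Ldha, the muscle subunit, was at 8.91, 9.38 and 9.10 in activated and 8.68, 9.48 and 8.22 in control cultures, and its difference of 0.34 ± 0.35 turned to -0.10 after cyclic loess. Ldhb, the heart subunit, was at 6.88, 7.12 and 6.10 in activated and 6.84, 6.94 and 6.59 in control cultures, and its difference of -0.09 ± 0.31 turned to 0.04 after median centring.

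**Figure D2:**
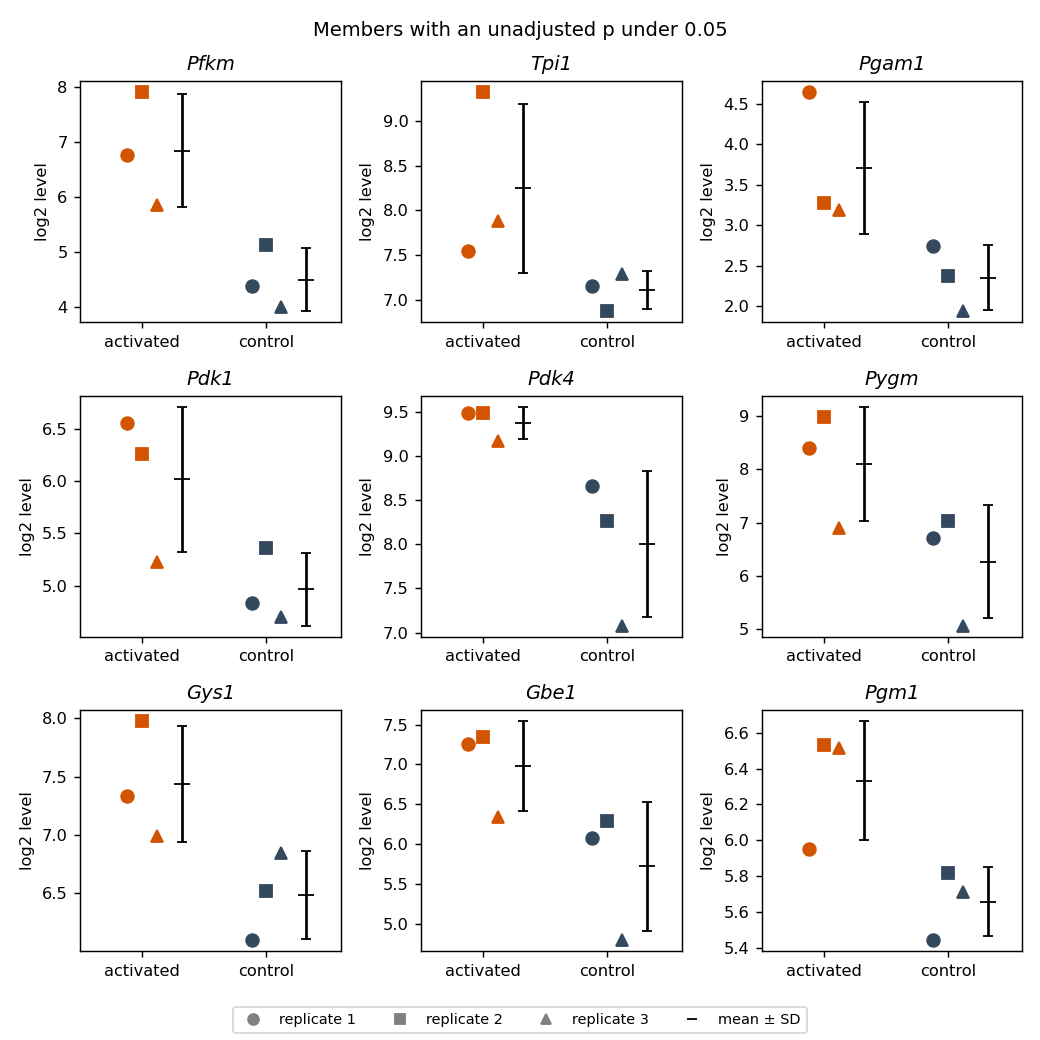
Log2 levels on each array of the 9 members with an unadjusted p under 0.05, activated at the left and control at the right of each panel; point shapes give the replicate number and bars the mean ± SD of 3 arrays. The groups are separate in 7 panels and overlap in those of Pdk1 and Pygm.

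Glycogen phosphorylase releases glucose 1-phosphate from glycogen. Pygm, the muscle isoform that is deficient in McArdle disease, was at 8.41, 8.99 and 6.91 in activated replicates 1, 2 and 3 and 6.71, 7.04 and 5.07 in the control replicates. Replicate 3 was lowest in both groups, and activated replicate 3 lay just under control replicate 2, while the numbered pairs differed by 1.70, 1.95 and 1.84. Pygm was 3.55-fold higher in activated cultures, a log2 difference of 1.83 ± 0.67 (limma, adjusted p = 0.565, and 0.0507 with the replicate block). The brain isoform Pygb was at 5.08, 6.15 and 6.28 in activated and 5.39, 6.32 and 6.07 in control cultures, a difference of -0.09 ± 0.40 that turned to 0.04 after median centring. Pygl, the liver isoform, was at 3.12, 2.59 and 2.81 in activated and 3.77, 3.05 and 3.45 in control cultures, lower in each numbered pair, with a difference of -0.58 ± 0.27 (limma, adjusted p = 0.653). Pygl was the lowest difference of all 39 members, at a dim level (percentile 26.9).

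Phosphorylase kinase activates phosphorylase. Phka1, the muscle regulatory subunit, was at 6.88, 6.52 and 5.59 in activated and 6.08, 6.18 and 6.58 in control cultures, and its difference of 0.05 ± 0.36 turned to -0.17 after quantile normalization. Phkg1, the muscle catalytic subunit, was at 3.41, 3.12 and 3.27 in activated and 3.84, 3.21 and 3.51 in control cultures, a difference of -0.25 ± 0.24. In both the groups overlapped. Pgm1, the phosphoglucomutase between glucose 1-phosphate and glucose 6-phosphate, was at 5.95, 6.53 and 6.52 in activated and 5.44, 5.81 and 5.71 in control cultures, without overlap. It was 1.6-fold higher in activated cultures (log2 difference 0.68 ± 0.25; limma, adjusted p = 0.576). Pgm2, of the same family, was at 5.57, 6.0 and 6.02 in activated and 5.94, 6.50 and 5.76 in control cultures, a difference of -0.20 ± 0.27.

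All 4 measured genes of glycogen synthesis had a higher mean in activated cultures, against 40.3% of all genes and 58.7% of those at or above the median level. Their median difference was 1.28 against -0.08 over all genes. At an unadjusted p under 0.05, 2 of the 4 were higher, against 4.44% of all genes and 8.19% of those at or above the median level. Ugp2, which makes the UDP-glucose donor, was at 8.64, 8.90 and 6.81 in activated replicates 1, 2 and 3 and 7.46, 7.78 and 4.50 in the control replicates. Gyg, the glycogenin primer, was at 9.23, 9.61 and 7.82 in activated and 8.18, 8.40 and 6.18 in control cultures. Gbe1, the branching enzyme, was at 7.26, 7.35 and 6.33 in activated and 6.08, 6.29 and 4.79 in control cultures. In all 3 genes replicate 3 was the lowest array of its group and the activated array exceeded the control array of each number. The paired differences were 1.17, 1.12 and 2.31 for Ugp2, 1.06, 1.2 and 1.65 for Gyg and 1.18, 1.06 and 1.54 for Gbe1. Without the block the log2 differences were 1.54 ± 0.93 for Ugp2, 1.3 ± 0.68 for Gyg and 1.26 ± 0.46 for Gbe1 (limma, adjusted p = 0.723, 0.692 and 0.567). With it the adjusted p was 0.101, 0.0816 and 0.0796 in limma. Leaving out control replicate 3 gave 0.49 for Ugp2, 0.60 for Gyg and 0.80 for Gbe1. Gys1, the muscle glycogen synthase, was at 7.34, 7.98 and 7.0 in activated replicates 1, 2 and 3 and 6.10, 6.52 and 6.85 in the control replicates, without overlap. Replicate 3 was lowest among its activated arrays and highest among its control arrays. Gys1 was 1.93-fold higher in activated cultures (log2 difference 0.95 ± 0.33; limma, adjusted p = 0.533). The mean over the 15 fibre genes was also lowest in replicate 3 of each group, though single fibre genes varied, and Ttn, the giant titin protein, was at 10.35, 9.81 and 10.67 in activated and 8.77, 8.16 and 9.94 in control replicates 1, 2 and 3.

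**Figure D3:**
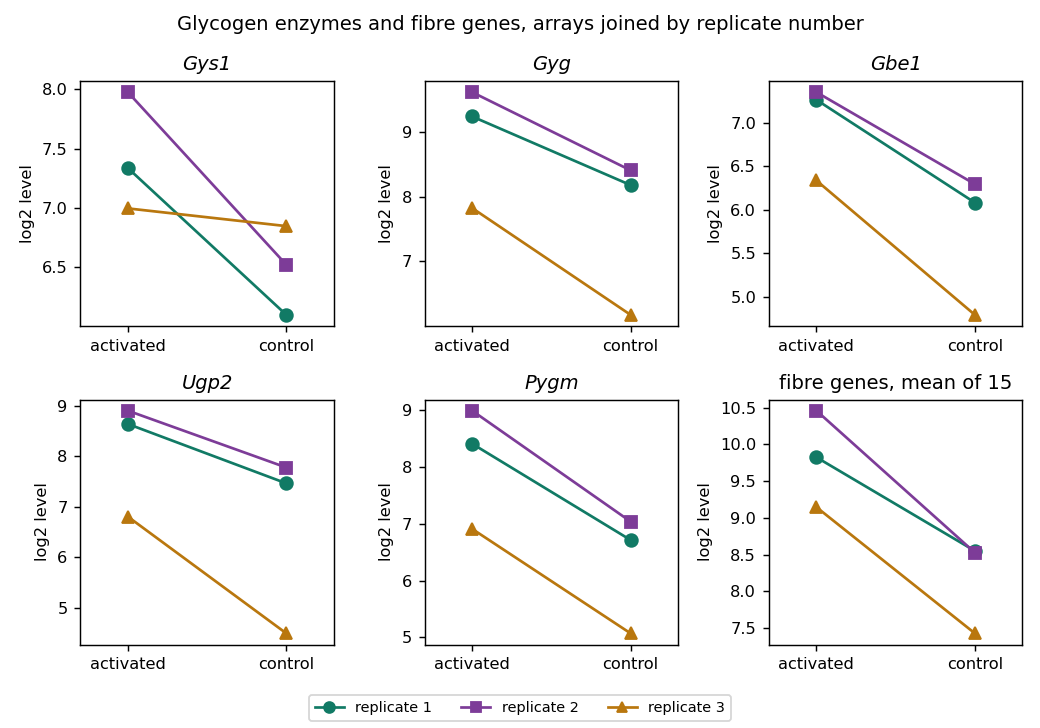
Log2 levels of Gys1, Gyg, Gbe1, Ugp2 and Pygm and the mean log2 level of 15 fibre genes, activated at the left and control at the right, with lines joining arrays of one replicate number. Each line runs lower at the control end, and replicate 3 is the lowest line in every panel but that of Gys1.

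Creatine kinases and the adenylate enzymes buffer ATP. Ckm, the cytosolic creatine kinase of fibres, was at 4.82, 4.14 and 4.28 in activated and 4.88, 4.64 and 4.53 in control cultures. The groups overlapped, the difference was -0.27 ± 0.26 and its 95% interval in limma ran from -0.87 to 0.33. Its level lay at percentile 54.3 of all genes and how well this probe set responds was not tested. Ckb, the brain creatine kinase that is also found in myoblasts, was at 5.51, 7.03 and 7.01 in activated replicates 1, 2 and 3 and 4.60, 6.53 and 5.98 in the control replicates. Replicate 1 was lowest in both groups and each numbered pair was higher in the activated array, by 0.91, 0.50 and 1.03. The unblocked difference was 0.81 ± 0.59 (limma, adjusted p = 0.75; 0.26 without control replicate 1).

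Ckmt2, the mitochondrial creatine kinase of sarcomeric muscle, was at 5.71, 8.09 and 3.69 in activated and 4.68, 4.07 and 3.49 in control cultures. Activated replicate 2 stood far above the other 5 arrays, and the difference of 1.75 ± 0.99 was 0.62 without it. Ckmt1, the ubiquitous mitochondrial form, was at 3.39, 3.01 and 2.84 in activated and 3.35, 3.2 and 2.98 in control cultures, a difference of -0.10 ± 0.24 that turned to 0.08 after quantile normalization. Ampd1, the AMP deaminase of muscle, was at 5.63, 6.40 and 4.94 in activated and 5.10, 4.81 and 5.08 in control cultures, with activated replicate 2 highest and activated replicate 3 among the control arrays. Ak1, the cytosolic adenylate kinase, was at 7.70, 8.81 and 7.63 in activated and 7.80, 7.37 and 7.19 in control cultures, likewise highest in activated replicate 2. The difference of Ampd1 was 0.66 ± 0.37, and 0.29 without activated replicate 2. That of Ak1 was 0.60 ± 0.37, with 0.21 without that array and 0.29 after quantile normalization.

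Muscle isoforms were set against their counterparts from other tissues. Of the 11 muscle isoforms 9 had a higher and 2 a lower mean in activated cultures, and their median difference was 0.66. Of the 11 measured counterparts 5 were higher and 6 lower, with a median of -0.0071. A higher mean was found in 40.3% of all genes and in 58.7% of those at or above the median level. After quantile normalization the medians were 0.45 for the muscle isoforms and 0.08 for the counterparts. Probe sets of the muscle isoforms averaged 5.29 to 7.10 on the arrays, and those of the counterparts 4.57 to 4.93. The part of level in this contrast was not tested. The median of the muscle isoforms was 0.29 without activated replicate 2. Only 2 muscle isoforms (Pfkm and Pygm) and 1 counterpart (Pgam1) had an unadjusted p under 0.05, against the shares of all genes given above.

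Because different probe sets cannot be compared in level, each pair was compared by its log2 ratio within an array, activated minus control, which asks whether both isoforms changed unequally. Of 18 pairs the ratio was higher in activated cultures in 14 and lower in 4. The pairs are not independent, since Slc2a4, Pfkm, Pygm and Ampd1 each entered more than 1 pair, always with a higher ratio. Aldoa, Ldha and Gys1 also head pairs, though they are not among the muscle isoforms counted above. The share of higher ratios among other gene pairs is not given here. The exact two-sided permutation test of 3 against 3 arrays cannot go below p = 0.1, and the smallest p adjusted over the 18 pairs was 0.3, so no ratio could pass this unpaired test. In 5 pairs every activated ratio exceeded every control ratio, and in 1 every one was below. The ratio of Pfkm to Pfkl was 5.83-fold higher in activated cultures (log2 change 2.54, exact p = 0.1). That of Pygm to Pygl was 5.31-fold higher, and that of Gys1 to the liver synthase Gys2 2.27-fold. The ratio of Aldoa to Aldoc was 2.14-fold higher and that of Eno3 to Eno2 2.09-fold, and these 4 pairs too had no overlap, at the smallest exact p the design allows. After quantile normalization the log2 change was 0.48 for Eno3 to Eno2 (exact p = 0.3) and 0.73 for Gys1 to Gys2 (exact p = 0.2), so both overlapped. That of Eno3 to Eno2 was 0.34 after cyclic loess, and that of Aldoa to Aldoc 0.62 without activated replicate 2. In all 4 pairs the counterpart lay under the median level, and none could be compared once such probe sets were left out.

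In other pairs the arrays of the groups overlapped, or the ratio was lower in activated cultures. The ratio of Pygm to Pygb was higher by 1.92 and that of Pfkm to Pfkp by 1.81, with overlapping arrays (exact p = 0.3 and 0.2). Taken within replicate numbers, the differences were 2.00, 2.12 and 1.63 for Pygm to Pygb and 1.99, 1.51 and 1.95 for Pfkm to Pfkp. That of Ckmt2 to Ckmt1 was higher by 1.85, and by 0.68 without activated replicate 2. The ratio ran the other way for Phka1 to Phka2, the liver regulatory subunit, with a log2 change of -0.73 and no overlap. It was also lower for Ckm to Ckb, -1.08, with overlap, with differences of -0.97, -0.99 and -1.28 within replicate numbers. For Hk2 to Hk1 the log2 change was -0.05. For Pgam2 to Pgam1 it was 0.07, with activated arrays from -1.55 to 2.29 around the control mean, and it turned to -0.35 after quantile normalization. Ampd1 was higher relative to the broadly expressed deaminases Ampd2, by 1.12, and Ampd3, by 0.62, both with overlap. Within replicate numbers, 9 of the 18 ratios were higher in the activated array of all 3 pairs, 2 were lower in all 3 and 7 were mixed. An exact two-sided sign-flip test over 3 pairs, added after the data were seen, cannot go below p = 0.25, so it too could call no ratio.

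**Figure D4:**
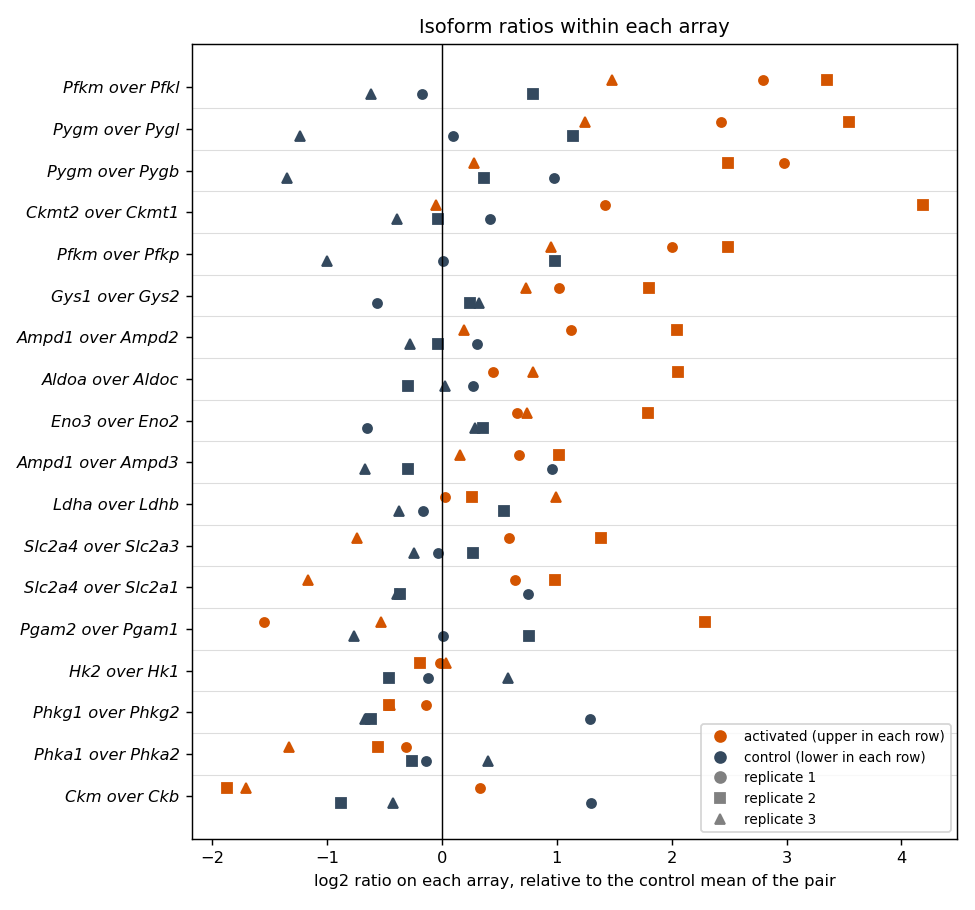
Log2 ratio of a muscle isoform, or of Aldoa, Ldha or Gys1, to its counterpart on each array, relative to the pair's control mean. Activated arrays are drawn above control arrays in each row and shapes give the replicate number. Pfkm over Pfkl heads the order at 2.54 and Ckm over Ckb closes it at -1.08.

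Other genes of these pathways, and linked genes such as Casq1 and Pgm5, were listed by function, with earlier results of these data known. The list held 60 genes, of which 54 were measured. Of these, 39 had a higher mean in activated cultures, against 40.3% of all genes and 58.7% of those at or above the median level. The median difference of the 54 was 0.53 against -0.08 over all genes. At an unadjusted p under 0.05, 13 were higher and 0 lower, with 0 past the adjusted test in limma. Of all genes 4.44% were higher and 3.42% lower at that level, and of those at or above the median level 8.19% and 4.42%. With the block, 25 were higher and 1 lower at an unadjusted p under 0.05 (all genes 9.63% and 7.01%). Pdk2, a further pyruvate dehydrogenase kinase of muscle, was at 7.52, 7.42 and 6.79 in activated and 5.37, 6.21 and 4.95 in control cultures, without overlap, a log2 difference of 1.73 ± 0.37 (limma, adjusted p = 0.291). Dlat, the acetyltransferase subunit of pyruvate dehydrogenase, differed by 0.67 ± 0.28.

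In glycogen metabolism, Ppp1r3c, a subunit that directs protein phosphatase 1 to glycogen, was at 5.19, 5.90 and 3.57 in activated and 2.47, 3.49 and 3.56 in control cultures, a difference of 1.71 ± 0.60. The lowest activated array lay within rounding of the highest control array. Stbd1, a glycogen-binding protein, differed by 1.01 ± 0.35, and the phosphorylase kinase subunit Phka2 by 0.78 ± 0.21 (limma, adjusted p = 0.393). Pgm5, a relative of phosphoglucomutase that lacks its activity and sits at cell adhesions, differed by 2.21 ± 0.74. Subunits of the energy sensor AMP-activated kinase were also among these genes: Prkaa2 differed by 1.87 ± 0.54, Prkag3 by 1.56 ± 0.55 and Prkab2 by 0.73 ± 0.29. Slc6a8, the creatine transporter, differed by 0.74 ± 0.31, Bsg, the partner protein of lactate transporters, by 1.07 ± 0.39, and Pfkfb2, of the same family as Pfkfb3, by 0.61 ± 0.26. Casq1, the calcium store protein of fast fibres, differed by 2.64 ± 0.97, with activated replicate 3 well below the other activated arrays.

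Of 16 measured regulators linked to glycolysis, 2 were higher and 0 lower at an unadjusted p under 0.05 (all genes 4.44% and 3.42%), both of the MEF2 family of muscle transcription factors. Mef2c was at 10.66, 10.63 and 8.99 in activated and 8.81, 8.47 and 6.89 in control cultures, a difference of 2.04 ± 0.62. Mef2a was at 9.72, 9.96 and 10.26 in activated and 9.0, 9.31 and 8.65 in control cultures, a difference of 0.99 ± 0.26 that was 0.61 after quantile normalization and 0.50 after cyclic loess. Mef2c was the 1 gene of that list past the adjusted test with the block (limma, adjusted p = 0.0479, against 0.465 without it), and it did not pass with quantile normalization and the block (limma, adjusted p = 0.0671), where 0% of all genes did. Hif1a, the oxygen-regulated activator of glycolysis, was at 7.94, 7.33 and 7.49 in activated and 7.98, 8.14 and 6.20 in control cultures, a difference of 0.14 ± 0.51. Myc, another activator of glycolytic genes, was at 8.48, 7.85 and 9.04 in activated and 8.30, 9.26 and 9.23 in control cultures, a difference of -0.47 ± 0.39. Both overlapped between the groups and neither had an unadjusted p under 0.05. These 2 genes lie outside the rule for naming genes of that list and were chosen after their values were seen.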

How the data were processed

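The authors deposited 1 table of log2 expression values for 6 arrays. Per the submitters' processing notes, RMA and Partek were used, without a stated version or role. RMA in general corrects background, normalizes by quantiles and summarizes probes on a log2 scale. The 6 deposited arrays did not share 1 distribution, with medians from 4.08 to 4.37 and SDs within an array from 1.72 to 2.13. Which of these steps the values had passed through is not stated. Per the labels' protocols, biotinylated target came from 100 ng of total RNA by an Affymetrix whole-transcript kit. The sources used here give neither detection calls nor a genome build. Of 24479 probe sets, 23281 had 1 symbol in the platform annotation, 0 several and 1198 none; 2 symbols had several probe sets, and the brightest was kept, leaving 23279 genes. The number of arrays limits the precision.

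Activated and control arrays were compared from these values with limma 3.58.1 in R 4.3.3, with group as the only term, two-sided moderated tests, no filter and Benjamini-Hochberg adjustment over all probe sets. The fit was tested on simulated data. Isoform ratios used an exact two-sided permutation test over the 20 regroupings, and a sign-flip test within replicate numbers was added after seeing the data. Same-numbered arrays deviated together from their group means (correlations of 0.38, 0.49 and 0.45 for replicates 1, 2 and 3), each over 0.1, so the numbers, which come from the sample titles, were taken as pairs and the fit with them as a block is given where it changes a count. Alternatives were quantile normalization, median centring, cyclic loess, the block, leaving out arrays, a filter on dim probe sets and an intensity trend. The members and lists were chosen with earlier results of these data known. Named were all measured members, the isoform counterparts, and genes of the pathway and regulator lists with an unadjusted p under 0.05, beside Ctnnb1 and Axin2.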

Additional observations from a re-analysis of the deposited data

How the results depend on the processing

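No member passed an adjusted p of 0.05 in limma (9 had an unadjusted p under 0.05) under any alternative except the replicate block without replicate 3, where 2 passed and 492 genes of the 23279 did. The block gave 17 members higher and 1 (Pygl) lower at an unadjusted p under 0.05, against 9 and 0 without it, and 14 were higher with quantile normalization and the block. Over all 23279 genes, 2242 were higher and 1632 lower with the block, and 1034 and 796 without it. With quantile normalization and the block, 1642 of all genes were higher. Leaving out 1 array gave 3 to 13 members higher (3 without activated replicate 2) and 0 to 1 lower, and an intensity trend gave 1 lower. Over all 23279 genes, leaving out 1 array gave 522 to 1592 higher and 385 to 1474 lower, and the trend gave 901 lower. Leaving out the pairs numbered 1, 2 and 3 with the block gave 15, 12 and 21 members higher, against 1775, 1724 and 2061 of all 23279 genes. The median difference of the muscle isoforms was 0.66, was 0.29 to 0.89 with 1 array left out and, with the block, was 0.73, 0.20 and 1.05 without pairs 1, 2 and 3. Of the isoform ratios 14 were higher, and 7 once probe sets under the median level were left out, since fewer pairs remained. After median centring the members' median was 0.72, against 0.60 as deposited. Of the single gene differences under alternatives, 709 kept their sign and side of an unadjusted p of 0.05. Among the others, 102 lost and 56 gained an unadjusted p under 0.05, and 52 turned sign. Of the ratios, 178 kept and 12 turned their sign. The 178 include ratios under median centring, the replicate block and the filter on dim probe sets. These settings leave the ratio of a pair unchanged, so its sign could not turn there.

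After quantile normalization, with or without the block, the sign turned for Slc2a1 (-0.054), Slc2a3 (0.12), Ldha (-0.0023), Phka1 (-0.17), Ckmt1 (0.078), Ampd3 (-0.0079) and Phkg2 (-0.028). Without the block it also turned the ratio of Pgam2 over Pgam1 (-0.35). After cyclic loess it turned for Slc2a1 (-0.11), Slc2a3 (0.17), Ldha (-0.10), Phka1 (-0.13), Ckmt1 (0.080), Phkg2 (-0.027) and Pgam2 over Pgam1 (-0.41), and after median centring for Slc2a3 (0.12), Ldhb (0.040), Pygb (0.038) and Ckmt1 (0.027). With 1 array left out, the values that turned sign ran over Slc2a3 (-0.20 to 0.17), Phka1 (-0.23 to 0.42), Ampd3 (-0.39 to 0.42), Phkg2 (-0.39 to 0.43), Phkg1 over Phkg2 (-0.69 to 0.29), Pygb (-0.36 to 0.29), Pgm2 (-0.36 to 0.011), Slc2a4 over Slc2a1 (-0.26 to 0.81), Aldoc (-0.49 to 0.076), Hk2 over Hk1 (-0.28 to 0.23), Pgam2 over Pgam1 (-1.04 to 0.88), Slc2a4 (-0.0045 to 0.89), Slc2a4 over Slc2a3 (-0.077 to 0.99), Ldhb (-0.30 to 0.21) and Ckmt1 (-0.25 to 0.018). With the block it turned without pair 1 for Slc2a3 (0.18), Pygb (0.019), Phka1 (-0.33), Ampd3 (-0.35) and Phkg2 (-0.35), without pair 2 for Slc2a4 (-0.059), Phka1 (-0.098) and Ampd3 (-0.071) and without pair 3 for Aldoc (0.11) and Ldhb (0.11). The cause of these turns was not tested. The arrays carry no detection calls, so how far dim probe sets lie above background is unknown here.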
